A study of Sus scrofa with 12 samples.

Results

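Endothelium keeps blood fluid through a small set of surface and secreted proteins that act on the clotting cascade and on platelets. The genes described here were chosen as a list of 10 coagulation and anticoagulant genes of endothelium, F3, TFPI, TFPI2, THBD, PROCR, F2R, ENTPD1, NT5E, ANXA5 and VWF, and were looked up by pig gene symbol among the 19681 Ensembl genes of the expression tables. Of the 10 genes, 8 were found. VWF and THBD were not matched by symbol and are not analysed here. In the porcine endothelial cell line AOC, 6 of the 8 genes (TFPI, TFPI2, PROCR, ENTPD1, NT5E and ANXA5) lay above every library of the induction, day 12 included. Of these, TFPI, PROCR and NT5E passed the filter on low values only through AOC itself. The share of all genes that lay above every library in this way is not given here. Of all genes tested, 22.1% to 26.7% were called higher in AOC than in a stage of the induction. F2R alone among the 8 reached the level of the line during induction, and F3, the initiator of clotting, lay lowest in the line.

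Clotting starts when tissue factor (F3) meets factor VII of the blood. Tissue factor pathway inhibitor (TFPI) blocks that step, and its relative TFPI2 inhibits serine proteases of the matrix and of clotting. Endothelial protein C receptor (PROCR) presents protein C for activation, and the activated enzyme, with protein S, cuts factors V and VIII. F2R (PAR1) is the main receptor through which cells sense thrombin. ENTPD1 (CD39) and NT5E (CD73) act in series on the cell surface to turn ATP and ADP, which activate platelets, into adenosine, which restrains them. ANXA5 (annexin A5) covers phosphatidylserine, the membrane lipid on which clotting factors assemble. In pigs these genes are watched because the match between porcine endothelium and the blood of another species bears on clotting in transplants.

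RNA sequencing gave 12 libraries, 3 biological replicates (A, B and C) for each of 4 groups. IEC2, IEC4 and IEC12 were porcine induced pluripotent stem (iPS) cells at day 2, 4 and 12 of endothelial induction. The cells had received CHIR99021, an activator of Wnt signalling, up to day 2, then BMP4, FGF2 and VEGF up to day 4, and then EGM-2 endothelial medium with VEGF. AOC is a cell line, so its replicates are not separate animals. The labels give no sorting of the cells of IEC2, IEC4 or IEC12. In the paper, day 12 cells sorted for CD31 (PECAM1) are a separate group, named S. The genotype, sex and age of the animals behind the cells are not given in the sources used here. The libraries that the paper names iPS and S are not analysed here. Replicates may share a culture, and p-values measure only the spread between these samples.

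Levels are FPKM, a count of fragments divided by transcript length and by the size of the library, so that levels of different genes can be compared roughly. How exact such comparisons between genes are was not tested. Common reference genes spanned a wide range, with TUBB at most 1.16 FPKM, ACTB at 10 to 79.8 and GAPDH at 534 to 5246. A value of 0 in such a table can be a failed estimate, and a gene is then said only to be listed at 0. Summed over genes, a library held between 335976.4 and 457193.7 FPKM, with 8357 to 10467 genes at an FPKM of at least 1. Replicates correlated with r of 0.967 to 0.992 over genes. Differences were tested with limma on log2(FPKM + 1), on which low genes show less change than their ratio, and a gene was called at a Benjamini-Hochberg adjusted p below 0.05 over all genes tested. Comparisons among the IEC groups rest on 10542 genes and 9 libraries, and those with AOC on 11053 genes and 12 libraries.

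Endothelial identity was checked first against 15 marker genes, of which 13 were found. CDH5 (VE-cadherin), a defining junction protein of endothelium, ranged from 103 to 137 FPKM in AOC and was listed at 0 in all 9 IEC libraries. PECAM1 was 91.7 to 131 FPKM in AOC and 0.0197 to 0.105 in IEC12. Summed over the 13 markers, the AOC libraries held 301 to 426 FPKM, those of IEC2 5.78 to 9.72, those of IEC4 4.68 to 6.87 and those of IEC12 0.858 to 2.63, where none of the 13 was above 1 FPKM in all 3 libraries. Not all 13 markers had this order. KDR, the VEGF receptor, was 2.42 to 3.99 FPKM in IEC2, 1.31 to 1.46 in AOC and at most 0.0374 in IEC12. ENG (endoglin) was 1.58 to 3.58 in IEC2 and 2.46 to 3.83 in IEC4, and the 0.278 to 2.02 of IEC12 overlapped the 0.361 to 1.23 of AOC. In the libraries of day 12 of endothelial induction, CDH5 and PECAM1 were thus at or near 0, and IEC12 is used below only as the name of that stage. In such bulk samples, fewer cells of a type and less RNA per cell cannot be told apart.

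Markers of other cell types also differed between groups. The 7 epithelial markers found summed to 531, 693 and 1507 FPKM in IEC4 replicates A, B and C, to 118 to 153 in IEC2, 42.3 to 87.1 in IEC12 and 2.25 to 4.05 in AOC. The 12 fibroblast and mural markers summed to 63.7 to 116 FPKM in the IEC libraries, of which COL3A1 gave 40.6 to 108, and to 23 to 36.5 in AOC. Other markers of that list went the other way, with COL1A2 at 13.1 to 15.5 in AOC and below 1 FPKM in all IEC libraries, and ACTA2 at 4.65 to 12.8 in AOC and at most 0.146 in IEC2 and IEC12. The 5 blood and platelet markers found, without ITGA2B and PF4, summed to between 3.18 and 9.61 FPKM in every library. Within that sum PTPRC (CD45), the common marker of white blood cells, lay at 2.14 to 3.49 FPKM in the IEC4 libraries and 1.16 to 1.64 in those of IEC12, was at most 0.0258 in IEC2, and was listed at 0 in AOC. Of the pluripotency markers only 2 of 8 were found, with sums of at most 6.39 FPKM, and of the liver-like markers 3 of 6, where the sum of 24.8 to 38.9 FPKM in AOC was nearly all APOA1.

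**Figure D1:**
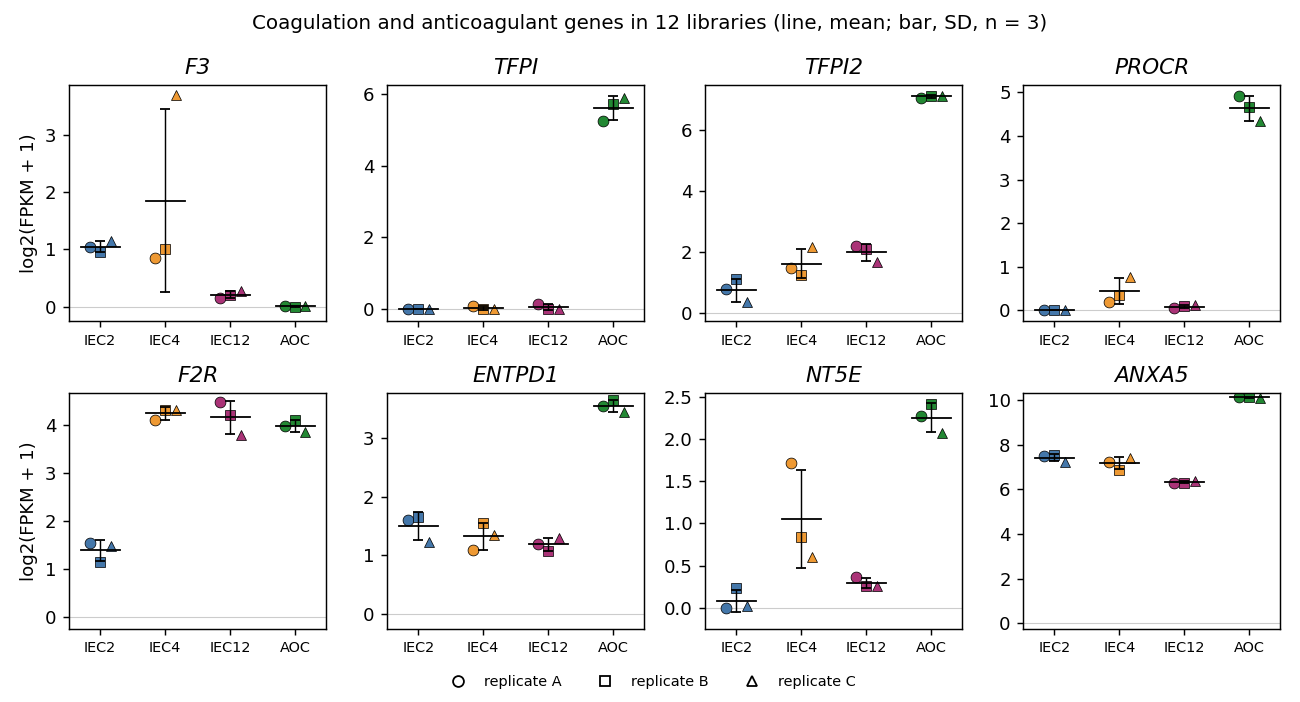
Level of each of the 8 genes, as log2(FPKM + 1), in every library of IEC2, IEC4, IEC12 and AOC. Each point is a library (circle, replicate A; square, B; triangle, C), the line is the mean and the bar the SD of 3 libraries, and each panel has its own axis. AOC lies above all IEC libraries for TFPI, TFPI2, PROCR, ENTPD1, NT5E and ANXA5, IEC2 lies below the others for F2R, and IEC4 replicate C stands apart for F3 at 11.9 FPKM.

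F3 (ENSSSCG00000022447, chromosome 4, 122827018 to 122837673 of Sscrofa11.1, which is susScr11) encodes tissue factor, the receptor of factor VII. Its FPKM was 1.06, 0.938 and 1.21 in IEC2 replicates A, B and C, 0.814, 1.02 and 11.9 in IEC4, 0.113, 0.15 and 0.21 in IEC12, and 0.00841, 0 and 0.00815 in AOC. IEC4 replicates A and B lay around the level of IEC2 and replicate C far above it, whereas IEC12 lay below IEC2 without overlap and AOC below IEC12 without overlap.

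No comparison among the IEC groups called F3 in the main fit, while 8 of 13 alternatives called it lower in IEC12 than in IEC4. The log2 difference was 0.81 ± 0.607 (SE) between IEC4 and IEC2 (limma, adjusted p = 0.323), -1.64 ± 0.607 between IEC12 and IEC4 (adjusted p = 0.051) and -0.84 ± 0.607 between IEC12 and IEC2 (adjusted p = 0.293). These values hang on IEC4 replicate C. Without it, the difference between IEC4 and IEC2 was -0.11 (adjusted p = 0.644) and the fall from IEC4 to IEC12 was called at -0.73 (adjusted p = 0.0111). Because the fit shares its spread over groups, leaving out that library, an alternative added after the values were seen, also called F3 lower in IEC12 than in IEC2 (-0.84, adjusted p = 0.00243). AOC was called lower than IEC4 (-1.85 ± 0.552, adjusted p = 0.0107), which held without replicate C, and not lower than IEC2 (-1.04 ± 0.552, adjusted p = 0.119) or IEC12 (-0.20 ± 0.552, adjusted p = 0.776). Without IEC4 replicate C, AOC was called lower than IEC2 as well (adjusted p = 1.02e-05). With a pseudocount of 0.1 in place of 1, the difference between AOC and IEC2 was -3.46 and was called too (adjusted p = 0.00178), while that between AOC and IEC12 was -1.27 and was not (adjusted p = 0.171).

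IEC4 replicate C also had the highest levels of epithelial genes. CDH1 (E-cadherin) was 7.51, 6.54 and 42.8 FPKM in IEC4 replicates A, B and C, and CLDN4, a tight junction protein, was 7.55, 7.34 and 61.1. EPCAM was 0.166, 0.208 and 2.21 in the same libraries. Genes of other lists also had their highest level there. Examples are GAS6 (0.835, 2.33 and 4.56), STX3 (6.03, 7.33 and 9.13), the blood marker CD14 (0.262, 0.278 and 2.79) and the fibroblast marker COL1A1 (4.73, 2.18 and 9.86). F2RL1 (PAR2), a receptor cleaved by the complex of tissue factor and factor VIIa, was 11.9, 9.75 and 55.7, and F2 (prothrombin) 3.25, 2.71 and 12.2. PROC, NT5E and the mural marker RGS5 were instead lowest in replicate C among the IEC4 libraries, at 0.0211, 0.522 and 3.93 FPKM. The part of epithelial cells in the F3 level of this library was not tested.

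**Figure D2:**
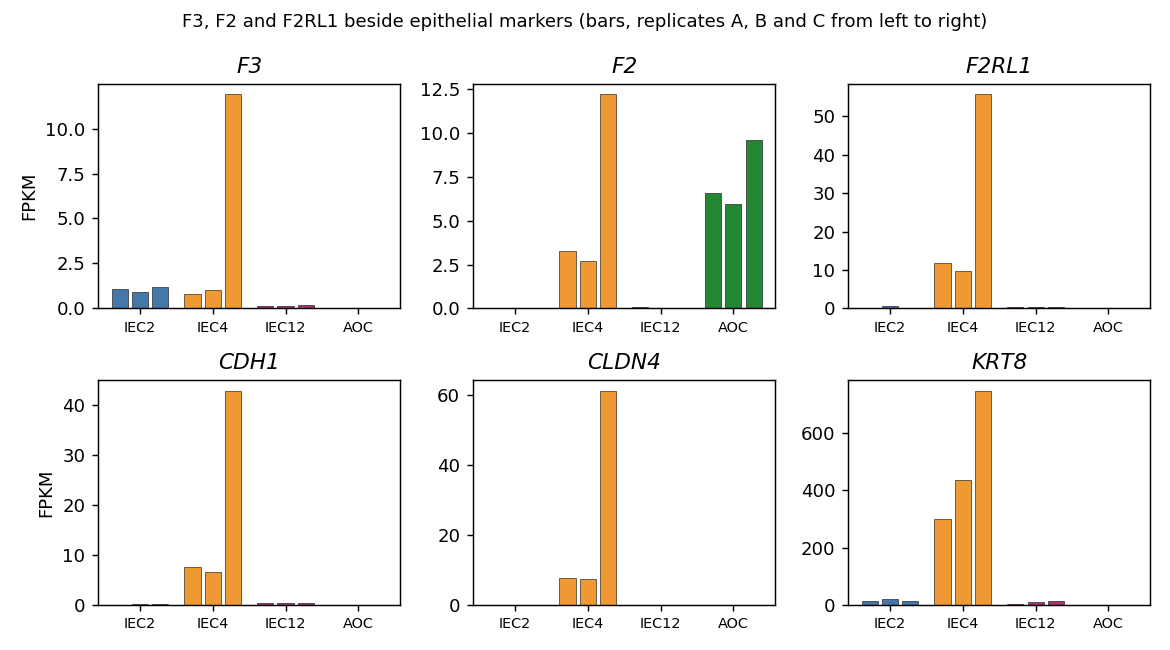
FPKM of F3, F2 and F2RL1 (top) and of the epithelial markers CDH1, CLDN4 and KRT8 (bottom) in every library, on linear axes that start at 0 and differ between panels. Bars are replicates A, B and C of each group from left to right. In IEC4 the bar of replicate C is the tallest in all 6 panels, at 11.9 FPKM for F3 and 42.8 for CDH1, while AOC has F2 at 5.95 to 9.59 FPKM with F3 at most 0.00841.

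TFPI (ENSSSCG00000016032, chromosome 15, 92345083 to 92409962) encodes the inhibitor that shuts off tissue factor with factor VIIa. Its FPKM was 36.8, 51.4 and 58.5 in AOC. It was listed at 0 in all 3 IEC2 libraries, was 0.067, 0 and 0 in IEC4 and was 0.11, 0 and 0 in IEC12. The gene was thus at a level above 0 in 2 of 9 IEC libraries, and the line lay above every one of them. TFPI passed the filter on low values only through the AOC libraries, so the test with the filter adds nothing to these values. Without the filter, the log2 differences of AOC were 5.62 from IEC2, 5.58 from IEC4 and 5.57 from IEC12 (adjusted p at most 5.74e-09), and with a pseudocount of 0.1 they were 8.91, 8.66 and 8.55. No fold is given, since most IEC values are 0. Among the IEC groups TFPI did not pass the filter and was not tested.

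TFPI2 (ENSSSCG00000015322, chromosome 9, 73684236 to 73694663) encodes a secreted inhibitor with the same kind of Kunitz domains. It was 130.3, 136 and 137 FPKM in AOC. The IEC2 libraries held 0.73, 1.18 and 0.295 FPKM, the IEC4 libraries 1.77, 1.36 and 3.46, and the IEC12 libraries 3.64, 3.29 and 2.22. IEC2 lay below IEC4 and IEC12 without overlap, IEC4 and IEC12 overlapped, and AOC stood far above all.

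The mean of TFPI2 in AOC, 135 ± 3.77 FPKM (SD, n = 3), was 44.1 times that of IEC12, 61.3 times that of IEC4 and 183 times that of IEC2. From IEC2 to IEC12 TFPI2 rose 4.14-fold in mean FPKM, a log2 difference of 1.24 ± 0.288 (adjusted p = 0.00688). The rise from IEC2 to IEC4 was called at 0.86 ± 0.288 (adjusted p = 0.0406), and the call was lost without IEC2 replicate A (adjusted p = 0.087), IEC2 replicate C (0.133), IEC4 replicate A (0.0696) or IEC4 replicate C (0.128). IEC12 differed from IEC4 by 0.38 ± 0.288 (adjusted p = 0.308). Within each AOC library, TFPI2 was 2.35 to 3.54 times as high as TFPI, so TFPI2 had the higher FPKM of the pair in the line. The ratio of F3 to TFPI in AOC was at most 0.000228.

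PROCR (ENSSSCG00000026585, chromosome 17, 38532530 to 38537397) encodes the endothelial protein C receptor. AOC held 29.2, 24.2 and 19.3 FPKM. The values were 0, 0.00956 and 0 in IEC2, 0.143, 0.268 and 0.704 in IEC4, and 0.031, 0.0627 and 0.0795 in IEC12. All 9 IEC libraries were below 1 FPKM, with IEC4 above IEC12 and IEC12 above IEC2 without overlap.

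The mean PROCR level of AOC, 24.2 ± 4.92 FPKM (SD, n = 3), was 65.3 times that of IEC4 and 419.9 times that of IEC12. PROCR, too, passed the filter only through AOC. Without the filter, the log2 differences of AOC were 4.63 from IEC2, 4.20 from IEC4 and 4.56 from IEC12 (adjusted p at most 7.28e-08). Among the IEC groups PROCR was below the filter. Without it, IEC4 was higher than IEC2 by 0.43 ± 0.127 on the log2 scale (adjusted p = 0.0454), a call that was lost with all 12 libraries in the fit (adjusted p = 0.0786), and IEC12 differed from IEC4 by -0.35 ± 0.127 (adjusted p = 0.0765).

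F2R (ENSSSCG00000035355, chromosome 2, 85642794 to 85659133) encodes PAR1, which thrombin activates by cutting its outer end. It was 1.91, 1.2 and 1.79 FPKM in IEC2, 16.1, 19 and 19 in IEC4, 21.3, 17.6 and 12.9 in IEC12, and 14.9, 16.3 and 13.4 in AOC. IEC2 lay below the other groups without overlap, and the values of IEC4, IEC12 and AOC lay between 12.9 and 21.3 FPKM.

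F2R rose 11-fold in mean FPKM from IEC2 to IEC4, a log2 difference of 2.86 ± 0.206 (adjusted p = 1.34e-05). IEC12 was higher than IEC2 by 2.78 ± 0.206 (adjusted p = 1.06e-05), and AOC was higher than IEC2 by 2.60 ± 0.186 (adjusted p = 2.09e-07). IEC12 against IEC4 gave -0.08 with a 95% interval of -0.54 to 0.38 (adjusted p = 0.765). AOC against IEC4 gave -0.26 (95% interval -0.67 to 0.14, adjusted p = 0.224) and AOC against IEC12 -0.18 (-0.59 to 0.23, adjusted p = 0.43). The direction of these 3 small differences was not stable, since with the libraries scaled by the median of ratios they became 0.15, 0.23 and 0.08, and with equal totals AOC was called lower than IEC4 (-0.51, adjusted p = 0.0184).

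ENTPD1 (ENSSSCG00000010497, chromosome 14, 107263546 to 107390923) encodes CD39, which cuts ATP and ADP to AMP. Its FPKM was 10.7, 11.5 and 9.83 in AOC, 2.05, 2.16 and 1.35 in IEC2, 1.13, 1.93 and 1.55 in IEC4, and 1.28, 1.11 and 1.46 in IEC12. The IEC groups overlapped their neighbours in the order of means and AOC lay above them all. The mean of AOC was 5.75 times that of IEC2, 6.94 times that of IEC4 and 8.29 times that of IEC12, with log2 differences of 2.04, 2.21 and 2.35 (SE 0.172 each, adjusted p at most 8.18e-07). No difference among the IEC groups was called, with log2 differences of -0.17 (adjusted p = 0.52) between IEC4 and IEC2, -0.14 (0.576) between IEC12 and IEC4 and -0.31 (0.222) between IEC12 and IEC2.

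NT5E (ENSSSCG00000004291, chromosome 1, 54400786 to 54450743) encodes CD73, which turns AMP into adenosine. AOC held 3.84, 4.33 and 3.2 FPKM. The values were 0, 0.176 and 0.00994 in IEC2, 2.28, 0.795 and 0.522 in IEC4, and 0.286, 0.193 and 0.193 in IEC12. AOC lay above every IEC library, and the stage nearest to it was IEC4, with replicate A the highest.

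The mean NT5E level of AOC was 3.16 times that of IEC4 and 16.9 times that of IEC12. NT5E reached 1 FPKM in 1 IEC library and passed the filter only through AOC. Without the filter, the log2 differences of AOC were 2.17 from IEC2, 1.20 from IEC4 and 1.96 from IEC12 (SE 0.244 each, adjusted p at most 0.00231). Among the IEC groups, also without the filter, IEC4 was higher than IEC2 by 0.97 ± 0.253 (adjusted p = 0.0286) and IEC12 differed from IEC4 by -0.76 ± 0.253 (adjusted p = 0.0597), a fall that was called with all 12 libraries in the fit (adjusted p = 0.0205). The ratio of NT5E to ENTPD1 within a library was 0.326 to 0.378 in AOC, 0 to 0.0816 in IEC2 and 0.132 to 0.223 in IEC12. In IEC4 it was 2.01, 0.412 and 0.338, so replicate A alone had more NT5E than ENTPD1.

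ANXA5 (ENSSSCG00000009097, chromosome 8, 102387833 to 102420868) was the most abundant of the 8 genes in every library. It was 1127, 1119 and 1097 FPKM in AOC, 182, 184 and 149 in IEC2, 148, 117 and 168 in IEC4, and 78.1, 77.5 and 83.1 in IEC12. IEC2 and IEC4 overlapped, IEC12 lay below both, and AOC above all. Even in IEC12 the gene stood at or above the 94.4th percentile of the genes with a value above 0.

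From IEC4 to IEC12, ANXA5 fell by 0.84 on the log2 scale (SE 0.152, adjusted p = 0.00209), from a mean of 144 ± 25.7 to 79.6 ± 3.05 FPKM (SD, n = 3). IEC12 against IEC2 gave -1.10 (SE 0.152, adjusted p = 0.000389), and IEC4 against IEC2 gave -0.26 (adjusted p = 0.206). AOC was higher than IEC2 by 2.70, than IEC4 by 2.96 and than IEC12 by 3.79 (SE 0.133 each), the last a ratio of means of 14. ANXA5 thus moved away from the level of the line during induction. Of the 5 genes tested with all 9 IEC libraries in the fit, only ANXA5 was called lower at day 12 than at day 2. It was joined by F3 without IEC4 replicate C. TFPI, PROCR and NT5E were below the filter there and were not tested.

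In counts, 2 of the 5 genes tested were called between IEC4 and IEC2 (F2R and TFPI2 higher), where 37.3% of all genes tested were called and 24.8% were called higher. Between IEC12 and IEC4, 1 of 5 (ANXA5, lower) was called against 44.2% of all genes (26.9% lower), and between IEC12 and IEC2, 3 of 5 (F2R and TFPI2 higher, ANXA5 lower) against 43.6% (24.2% higher and 19.3% lower). AOC differed from IEC2 in 7 of 8 genes, all higher, where 63.8% of all genes were called and 26.7% were called higher. Against IEC4, 7 of 8 were called, 6 higher and F3 lower, where 69.1% of all genes were called, 22.1% higher and 47% lower. Against IEC12, 6 of 8 were called, all higher, where 58.5% of all genes were called and 22.4% were called higher. TFPI, PROCR and NT5E entered the comparisons with AOC only because AOC itself was above the filter, so that those counts cannot stand as support. At the stricter limits of the paper (p and adjusted p below 0.001 and an absolute log2 difference above 3), none of the 5 genes tested among the IEC groups was called, where 1.18%, 0.939% and 1.22% of all genes were called in the 3 comparisons in the order above. At those limits TFPI, TFPI2 and PROCR were called against IEC2 (5.47% of all genes) and IEC4 (5.17%), and ANXA5 with them against IEC12 (4.41%). The 3 comparisons with AOC share the AOC libraries and are not independent.

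The values are relative to the other genes of a library. The median log2 difference of all genes tested was 0.20 for IEC4 against IEC2, -0.15 for IEC12 against IEC4, 0.03 for IEC12 against IEC2, and -0.20, -0.45 and -0.21 for AOC against IEC2, IEC4 and IEC12. Relative to that median, F2R was higher by 2.66 in IEC4 than in IEC2, TFPI2 by 0.66, and ANXA5 differed between IEC12 and IEC4 by -0.69. With median-of-ratios scaling the rise of TFPI2 to IEC4 was 0.67 and was no longer called (adjusted p = 0.0879).

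**Figure D3:**
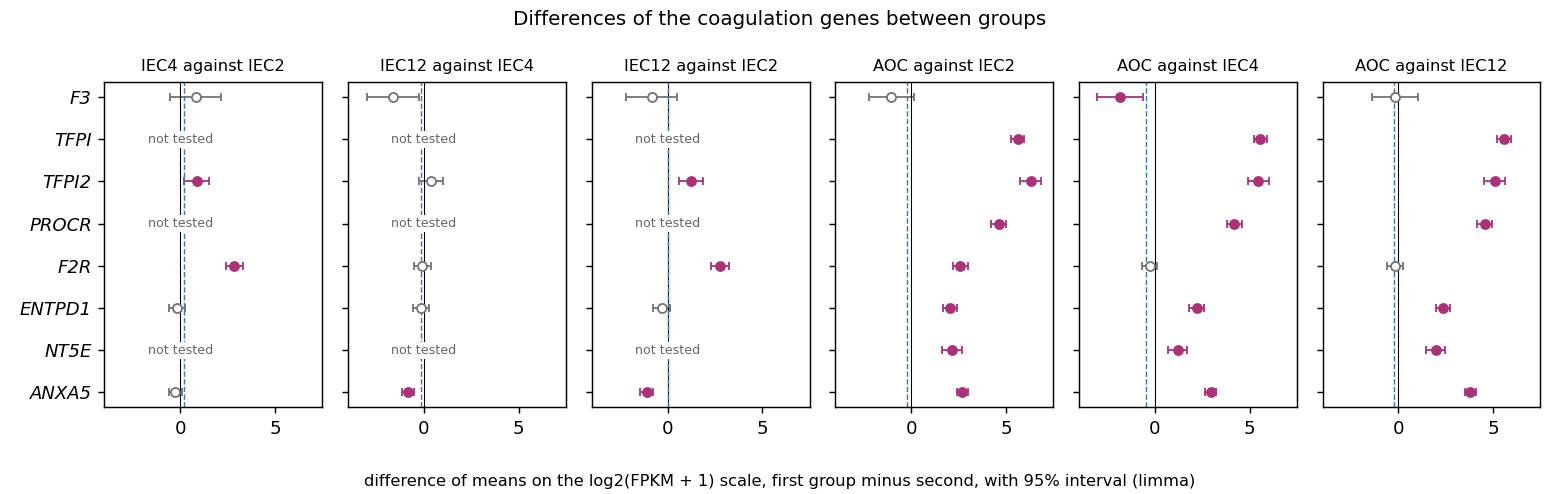
Difference of the 8 genes in the 6 comparisons on the log2(FPKM + 1) scale, first group minus second, with 95% intervals from limma. Filled points were called at an adjusted p below 0.05, open points were not, and the dashed line is the median of all genes tested in that comparison. TFPI, TFPI2, PROCR, ENTPD1, NT5E and ANXA5 lie to the right of 0 in all 3 comparisons with AOC, and F2R is near 0 against IEC4 and IEC12. TFPI, PROCR and NT5E entered these 3 comparisons only through AOC.

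For the genes acting around these 8, 8 lists with 103 genes were used, of which 87 were found. Between AOC and IEC12, 61 were tested, of which 31 were higher in AOC, 9 were lower and 21 were not called, with a median log2 difference of 0.59 against -0.21 for all genes tested, of which 22.4% were higher and 58.5% were called in either direction. Of the 61, 6 (HS3ST1, F2RL2, ANGPT2, ENTPD3, DPP4 and NOS3) passed the filter only through AOC, and their calls as higher cannot stand as support. Between IEC12 and IEC2, 55 were tested, with 12 higher, 12 lower and 31 not called (median -0.05 against 0.03 for all genes, with 24.2% of all genes higher and 19.3% lower). With equal totals the same comparison gave 11 higher and 19 lower of 56. Of all genes called in it, 55.7% were higher in the main fit and 36.6% with equal totals. IEC12 had 10 of the 55 list genes higher and 25 lower than IEC4, where 44.2% of all genes were called and 26.9% were lower. The counts were 12 and 19 with median-of-ratios scaling and 6 and 27 with equal totals. Of all genes called between IEC12 and IEC4, 39.2% were higher in the main fit. That share was 53% with median-of-ratios scaling and 25.6% with equal totals. IEC4 had 18 of 55 higher and 8 lower than IEC2, where 37.3% of all genes were called and 24.8% were higher. AOC had 29 of 61 higher and 14 lower than IEC2, where 63.8% of all genes were called and 26.7% were higher. Against IEC4, AOC had 24 higher and 21 lower, where 22.1% of all genes were higher and 47% lower. The balance of that comparison turned with the scaling. It was 32 higher and 13 lower with median-of-ratios scaling and 22 higher and 26 lower with equal totals. All genes shifted too. Of all genes called between AOC and IEC4, 32% were higher in the main fit. That share was 50.7% with median-of-ratios scaling and 24.1% with equal totals.

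Of the 14 genes found of the clotting factor list, 6 were tested in each comparison. The list also holds the cargo receptors LMAN1 and MCFD2, which were among the 6. F5, the factor V that activated protein C cuts, was 9.71, 12.7 and 12.9 FPKM in AOC, was listed at 0 in IEC2, was 0.102, 0.583 and 0.138 in IEC4, and was 2.48, 2.15 and 1.58 in IEC12. It rose from IEC4 to IEC12 by 1.28 ± 0.192 on the log2 scale (adjusted p = 0.00081) and was still higher in AOC than in IEC12 by 2.06 ± 0.184 (adjusted p = 1.80e-06). Both values are on the log2(FPKM + 1) scale. F2 was 6.59, 5.95 and 9.59 FPKM in AOC, was listed at 0 in IEC2, was 3.25, 2.71 and 12.2 in IEC4, and was above 0 in IEC12 replicate A alone (0.0567). F7, the partner of tissue factor, was highest in IEC2, with 1.18, 2.7 and 2.29 FPKM there, 0.59, 0.577 and 0.546 in IEC4, 0.0286, 0.298 and 0.477 in IEC12, and 0 listed in all 3 AOC libraries. From IEC2 to IEC4, F7 fell by 0.93 on the log2 scale (SE 0.226, adjusted p = 0.0104). The 3 AOC libraries thus held prothrombin and factor V transcripts and listed F3 and F7 at or near 0.

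Among the anticoagulants, 9 genes were found and 5 tested against AOC. PROC, protein C itself, was listed at 0 in AOC, was at most 0.0434 FPKM in IEC2, was 2.14, 1.92 and 0.0211 in IEC4, and was 3.88, 7.24 and 6.78 in IEC12. It was higher in IEC12 than in IEC4 by 1.69 ± 0.397 (adjusted p = 0.00775), so IEC12 had the ligand PROC with PROCR below 0.1 FPKM, and AOC had PROCR with PROC listed at 0. PROS1, the cofactor protein S, was named after its values were seen. It lay between 91.7 and 150.0 FPKM in all 12 libraries and was called in no comparison (adjusted p from 0.0505 to 0.898). That result depends on the scaling. With median-of-ratios scaling, 4 of the 5 genes tested were called higher in AOC than in IEC2, in place of 2. As PROC was listed at 0 in AOC, PROS1 was among those 4, and so was HS3ST1. HS3ST1 passed the filter only through AOC, and its call, in the main fit too, cannot stand as support. Against IEC4 and against IEC12, the genes called higher were 3 in place of 2. Of all genes called against IEC2, IEC4 and IEC12, 50.9%, 50.7% and 51.1% were higher in AOC with that scaling. In the main fit these shares were 41.9%, 32% and 38.2%. SERPINE2, a thrombin inhibitor of the cell surface, was 53.9, 40.8 and 38.8 in AOC against 1.92, 2.23 and 1.99 in IEC2. It rose from IEC2 to IEC4 by 1.93 ± 0.211 (adjusted p = 0.000128), and the IEC12 libraries held 6.6, 9.78 and 9.83 FPKM. GGCX, the enzyme that carboxylates vitamin K dependent factors, rose from IEC2 (2.04, 2.64 and 4.56) to IEC4 (7.52, 12 and 10.9) by 1.47 ± 0.265 (adjusted p = 0.00224), and then fell by 1.35 to IEC12 (adjusted p = 0.00313).

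The 3 other protease-activated receptors found differed from F2R. F2RL1 was 25.8 FPKM on average in IEC4, the result of 11.9, 9.75 and 55.7, and at most 0.532 in any other library. It rose from IEC2 to IEC4 by 3.99 ± 0.52 (adjusted p = 0.000357) and fell by 3.86 to IEC12 (adjusted p = 0.000459). F2RL2 (PAR3), a cofactor for thrombin receptors, was 16.8, 18.7 and 16.8 in AOC and at most 0.438 in the IEC libraries. F2RL3 (PAR4) was at most 0.202 in AOC and was listed at 0 in all IEC libraries. The receptors above 1 FPKM were thus F2R alone in IEC2 and IEC12, F2R with F2RL1 in IEC4 and F2R with F2RL2 in AOC.

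VWF itself was not analysed here, and the 16 genes found of its storage and release gave the partners. SELP (P-selectin), which sits with von Willebrand factor in the storage granules of endothelium, was 65.1, 60.9 and 50 FPKM in AOC, was listed at 0 in IEC2, was 0, 0.0975 and 0 in IEC4, and was 3.68, 6.58 and 4.79 in IEC12. It rose from IEC4 to IEC12 by 2.52 ± 0.193 (adjusted p = 2.46e-05) and was higher in AOC than in IEC12 by 3.33 ± 0.183 (adjusted p = 2.86e-08). ANGPT2, another granule protein, was 27.4, 43.7 and 26.2 in AOC and at most 1.72 in the IEC libraries. STX3, a fusion protein of the granule membrane, was highest in IEC4 (6.03, 7.33 and 9.13) and rose there from IEC2 by 2.94 ± 0.22 (adjusted p = 1.77e-05). Between AOC and IEC12, 7 of the 14 genes tested, ANGPT2 among them, were higher and 3 lower, against 22.4% of all genes higher and 58.5% called.

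Of 20 genes of nucleotide and adenosine handling, 11 were tested against AOC. ENTPD3, an ectonucleotidase of the same family as ENTPD1, was 101, 101 and 89.3 FPKM in AOC, where ENTPD1 was 10.7 on average, and at most 1.84 in the IEC libraries. The difference between AOC and IEC12 was 6.18 ± 0.271 on the log2 scale for ENTPD3, which passed the filter only through AOC. ALPL, a phosphatase that also makes adenosine from AMP, was lowest in AOC, with 12.7, 19.6 and 18.3 in IEC2, 29.8, 40.7 and 27.6 in IEC4, 1.68, 3.15 and 6.98 in IEC12 and at most 0.0272 in AOC. From IEC4 to IEC12, ALPL fell by 2.90 (SE 0.355, adjusted p = 0.00028). ADK, which takes adenosine back into AMP inside the cell, was 22.5, 25.7 and 26.5 in IEC2, 69.2, 66.9 and 56.1 in IEC4, and 117, 111 and 107 in IEC12. It rose at both steps, by 1.33 ± 0.127 and by 0.80 ± 0.127 (adjusted p = 5.96e-05 and 0.00108). For the list, AOC against IEC12 gave 2 higher (ENTPD3 and DPP4, both in the fit only through AOC) and 3 lower of 11. Of all genes, 22.4% were higher and 58.5% were called. With median-of-ratios scaling the list gave 5 higher and 3 lower of 12. Of all genes called in that comparison, 38.2% were higher in the main fit and 51.1% with that scaling.

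All 15 genes of phosphatidylserine exposure and annexin partners were found and tested. ANXA2, the annexin that with S100A10 binds plasminogen, was 1627, 1859.8 and 1725 FPKM in AOC and 109 to 276 in the IEC libraries. Its partner S100A10 was 13.6, 25.8 and 17.6 in AOC and 3.38 to 4.09 in IEC12. ANXA6 went the other way, at 98.2, 83.3 and 98.7 in IEC2 and 119.9, 134 and 96.9 in IEC4 against 6.38, 18.2 and 27.8 in IEC12 and 23, 23.7 and 12 in AOC. From IEC4 to IEC12 it fell by 2.87 (SE 0.4, adjusted p = 0.000555). PLSCR1, a phospholipid scramblase family member, rose from IEC4 (8.86, 10.1 and 11.4) to IEC12 (28.4, 27 and 32.3) by 1.44 ± 0.167 (adjusted p = 0.00021). Between AOC and IEC12, 8 of the 15 were higher in AOC, 1 was lower and 6 were not called, where 22.4% of all genes were higher and 58.5% were called.

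**Figure D4:**
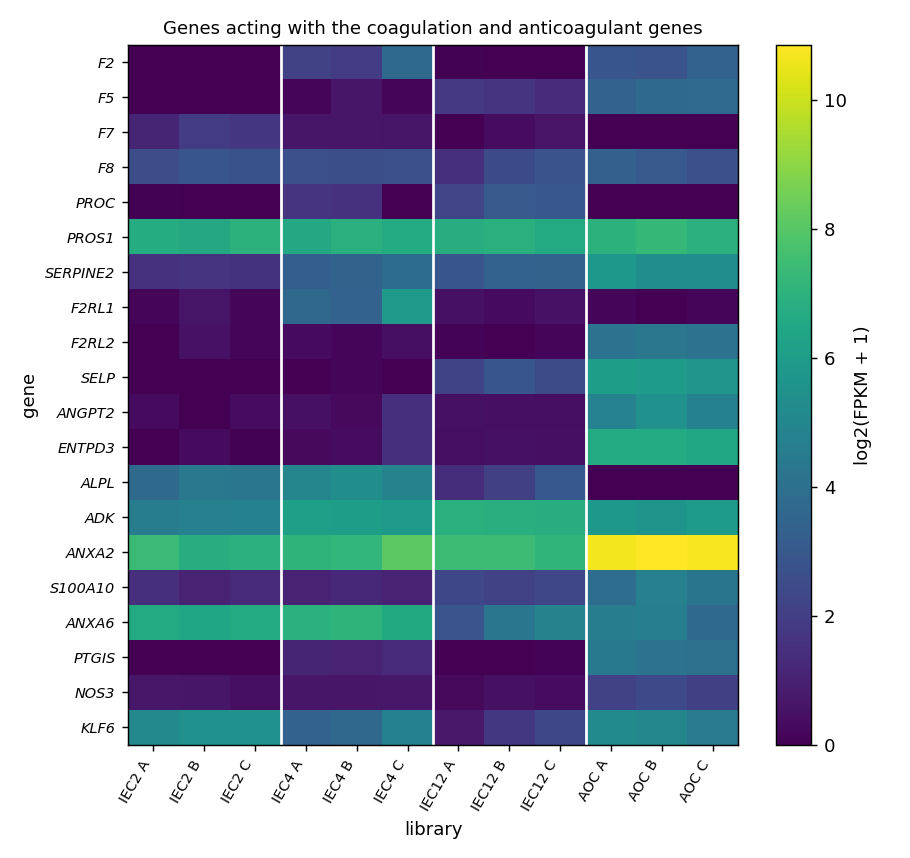
Level, as log2(FPKM + 1), of 20 genes that act with the 8 described, in the 12 libraries. Rows are genes, columns are libraries ordered by group, and brighter colours are higher levels. F8 and PROS1 were added after their values were seen. F2RL2, SELP, ANGPT2, ENTPD3 and PTGIS are bright in AOC, F2RL1 in IEC4 and PROC in IEC12, and PROS1 is similar in all columns.

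The last list held other inhibitors of platelets and genes that respond to flow, with 8 found. All 6 tested were higher in AOC than in IEC12, where 22.4% of all genes were higher, and 1 of them, NOS3, passed the filter only through AOC. All 5 tested among the IEC libraries were lower in IEC12 than in IEC4, where 26.9% of all genes were lower. PTGIS, which makes prostacyclin, was 20, 16.7 and 15.2 FPKM in AOC, 1.17, 1.06 and 1.47 in IEC4, listed at 0 in IEC2 and at most 0.0762 in IEC12. NOS3, the endothelial nitric oxide synthase, was 3.41, 4.22 and 3.11 in AOC and at most 0.613 in the IEC libraries, and was also among the endothelial markers. CD9, a tetraspanin of platelets and many other cells, was 308, 351 and 276 in AOC, at most 3.49 in IEC2, 91, 144 and 418 in IEC4, and 40.1, 46.4 and 28 in IEC12. KLF6 was 33.7, 43.7 and 44.7 in IEC2, 9.68, 11.5 and 26.3 in IEC4, 0.668, 2.36 and 4.11 in IEC12, and 34.3, 30.4 and 22.1 in AOC.

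As a description, the genes most like each of the 8 were sought by Pearson's r of log2(FPKM + 1) over the 12 libraries among 9158 tested genes with a symbol. Libraries of a group share their source, so that r mainly reflects the order of the 4 groups. F3 was most like LAMA3 (r = 0.953), followed by KIF13B and SGMS1. F2R was most like ODF2L (0.981), ENPP4 (0.974) and MMUT (0.965). The nearest genes of TFPI were NLRP3, ERN1 and ST8SIA1 (0.999 or above), those of TFPI2 were NTAN1, CTSS and EMP3 (0.993 to 0.995), and those of PROCR were HCLS1, LAPTM5 and RNF39 (0.998 to 0.999). ENTPD1 was nearest to UBE2B, ESAM and VPS36 (0.987 to 0.991). NT5E was nearest to AXL, MFRP and HEY2 (0.966 to 0.971). ANXA5 was nearest to S1PR1, EDN1 and SLC40A1 (0.989 to 0.991).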

How the data were processed

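RNA of the 12 samples was amplified by Smart-Seq2 and sequenced on an Illumina instrument. The authors analysed the reads with Galaxy and deposited 1 FPKM value per Ensembl gene and library, and the submitters' processing notes name Bowtie2 2.2.3, TopHat2 2.0.12, Cufflinks 2.2.1 and the build susScr11. The annotation release and any scaling between libraries are not given in the sources used here. Gene symbols came from a table of gene names that covered 13998 of 19681 identifiers, and positions from RefSeq (Sscrofa11.1), matched by symbol.

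FPKM values were analysed as log2(FPKM + 1) with limma 3.58.1 in R 4.3.3 (lmFit, contrasts.fit, eBayes with trend) over genes whose FPKM reached 1 in 3 or more of the libraries fitted, two-sided. Other steps used Python 3.11.15, pandas 2.3.3, NumPy 2.4.6 and matplotlib 3.10.9. The limma step was tested on simulated data. The 8 genes, the pathway and marker lists and the tests were chosen with earlier results of these data known. Genes of the lists were named as the called genes with the largest rise and fall of a list in a comparison, at most 2 per direction. The text leaves out some genes that the rule names. Genes given without a call in the text and 2 singled out (F8 and PROS1) fall outside it.

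The number of reads is unknown, and no interval from counts is given. Steps of low FPKM values gave relative depths of 0.895 to 1.23 in 11 libraries, and 0.668 or 1.34 in IEC12 replicate A, which the steps did not settle. No 2 libraries held identical values.

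Alternatives were a pseudocount of 0.1, no filter, a variance not tied to expression, only the 2 groups compared, all 12 libraries, the replicate letter as a block, median-of-ratios scaling, equal totals, the limits of the paper (p and adjusted p below 0.001, absolute log2 difference above 3) and each library left out in turn. Leaving IEC4 replicate C out of the comparisons of other groups was added after seeing the data. The tests had been written for FPKM or counts, and no count test was run since the values are FPKM.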

Additional observations from a re-analysis of the deposited data

How the results depend on the processing

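TFPI2, ENTPD1, NT5E and ANXA5 remained called higher in AOC in each of the 13 or 14 alternatives run per comparison other than the limits of the paper, and TFPI and PROCR in each of 10 or 11. TFPI and PROCR could not be tested with an AOC library left out, since they then failed the filter on low values. TFPI, PROCR and NT5E passed the filter only through AOC, so their repeated calls cannot stand as support. At the limits of the paper, 0 of the 5 genes tested were called in the 3 comparisons among IEC groups (2, 1 and 3 before). With AOC, 3 of 8 were called against IEC2 and against IEC4 (7 before). Between IEC4 and IEC2, 1 gene was called in place of 2 with the replicate block or with median-of-ratios scaling, and 1 to 2 with a library left out. More were called without the filter (F2R, NT5E and PROCR) and with all 12 libraries in the fit (F2R, TFPI2 and NT5E). Between IEC12 and IEC4, 2 were called in place of 1 with a pseudocount of 0.1, the replicate block, median-of-ratios scaling or equal totals, 3 with all 12 libraries in the fit, and 1 to 2 with a library left out. The gene gained was F3 in each of these, with NT5E (-0.76, adjusted p = 0.0205) beside it in the fit of all 12 libraries. The adjusted p of F3 ran from 0.0111 to 0.109, and the call of TFPI2 between IEC4 and IEC2 was lost in 7 of 14 alternatives (adjusted p 0.0181 to 0.133). The sign turned for F3 between IEC4 and IEC2 without IEC4 replicate C (-0.11, in a range of -0.11 to 1.30 with a library left out), for F2R between IEC12 and IEC4 with median-of-ratios scaling (0.15) and without IEC12 replicate C (0.10, in a range of -0.24 to 0.10), for ENTPD1 between IEC12 and IEC4 (0.00, from -0.14), and for F2R between AOC and IEC4 (0.23) and AOC and IEC12 (0.08), the last 3 with median-of-ratios scaling. The cause was not tested.

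Whether the replicate letters pair the libraries cannot be settled from 3 libraries per group. Deviations of libraries with the same letter correlated at -0.08 to 0.06 for IEC4 and IEC2, -0.18 to 0.02 for IEC12 and IEC4, 0.02 to 0.25 for IEC12 and IEC2, -0.18 to 0.04 for AOC and IEC2, 0.02 to 0.08 for AOC and IEC4 and -0.51 to 0.07 for AOC and IEC12. With 3 libraries per group and no read counts, levels near 0, as for TFPI and PROCR in the IEC libraries, cannot be told from absence.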

Other observations

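LMAN1 and MCFD2, the cargo receptor pair that carries factors V and VIII out of the endoplasmic reticulum, were measured in all 12 libraries. LMAN1 was 42.4, 52.8 and 56.7 FPKM in AOC and 72.3 to 114 in the IEC libraries, and AOC against IEC2 gave -0.94 on the log2 scale (limma, adjusted p = 0.000179). MCFD2 was 36.5, 30.4 and 33.3 in AOC against 10.5, 12.1 and 11.6 in IEC12, and from IEC4 to IEC12 it fell by 0.66 (adjusted p = 0.0164). F8, their other cargo, was 8.92, 7.29 and 5.23 in AOC and 1.87, 4.44 and 6.14 in IEC12, groups that overlapped (adjusted p = 0.0445), and it was named after its values were seen.

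MERTK, a receptor that takes up cells with exposed phosphatidylserine, was 21.8, 20.2 and 15.5 FPKM in AOC and at most 2.24 in the IEC libraries, and its bridging protein GAS6 rose from IEC2 to IEC4 by 1.42 (adjusted p = 0.0168) with 0.835, 2.33 and 4.56 in the IEC4 libraries. MFGE8, another bridge to phosphatidylserine, was 18.5, 14.9 and 19.1 in IEC4 and 0.346, 2.2 and 5.39 in IEC12, and fell by 2.61 between them on the log2 scale (adjusted p = 0.00186).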
